A study of Mus musculus with 18 samples.

Results

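The Oas1 family of the mouse is a cluster of 8 gene copies, Oas1a to Oas1h, on chromosome 5. All 8 were taken by gene symbol from the 55098 genes with a usable symbol in each of 18 RNA-seq libraries of early mouse embryos, in a series on histone crotonylation. The family was chosen by its FPKM in these same libraries, in which oocyte-type and interferon-type copies stood side by side over all 7 groups and Oas1h was low after crotonate. The crotonate values are therefore a description with no test. Smart-seq2, which copies whole poly(A) transcripts into cDNA, was run on pools of 5 to 10 embryos, 1 pool per library. In the siRNA experiment an siRNA against Echs1 (siEchs1) was set against a control siRNA (siCon) at 2 stages, E2C and L2C in the labels. The groups siEchs1 E2C, siCon E2C, siEchs1 L2C and siCon L2C have 3 libraries each. The treatment experiment exposed zygotes to sodium crotonate, to sodium acetate or to DMSO and took them at the early 2-cell stage (E2C), with 2 libraries per group. The labels give no strain, dose or hour of collection, and they spell out no name for L2C. They do not say whether libraries of a group came from separate matings or cultures, so the p-values measure the spread between these tubes alone.

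Oligoadenylate synthetases are sensors of viral RNA. Bound to long double-stranded RNA, they join ATP into short oligoadenylates, second messengers of the antiviral response. Interferon induces the genes in most tissues. Humans have a single OAS1 gene, whereas the mouse has a tandem array. Oas1a and Oas1g are the copies known as active, interferon-induced synthetases. Oas1b is the flavivirus resistance gene, which carries a premature stop codon in many laboratory strains. Oas1c, Oas1d, Oas1e and Oas1h are known from the ovary and oocyte, and Oas1d protein was reported to lack synthetase activity. Less is known of Oas1f.

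The annotation places the cluster within chr5:120786226-120921652 of GRCm38 (mm10), a stretch of 135.4 kb between Oas3 and Rph3a. In order along the chromosome lie Oas1e and Oas1c on the minus strand, Oas1b, Oas1f and Oas1h on the plus strand, Oas1g and Oas1a on the minus strand, and Oas1d on the plus strand. Oas1c (chr5:120800194-120812514) and Oas1b (chr5:120812635-120824163) point away from each other, with 120 bases between their starts. GENCODE lists Oas1b as a polymorphic pseudogene and the other 7 copies as protein-coding. An antisense gene, Gm43069, overlaps Oas1e and Oas1c and was listed at no more than 1.66 FPKM in any library. Its part in the levels of Oas1e and Oas1c was not tested. A miRNA gene, Gm22907, lies within the span of Oas1f and was listed at up to 143.36 FPKM, with a median of 0 over the 18 libraries.

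**Figure D1:**
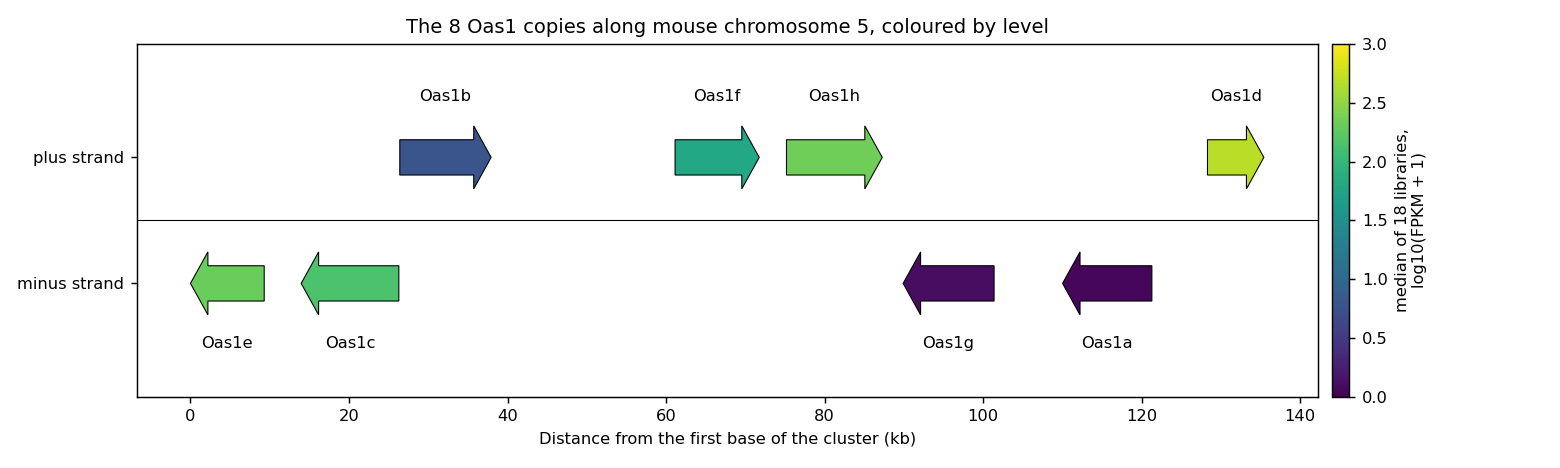
Map of the 8 Oas1 copies, drawn to scale by distance in kb from the first base of the cluster (x axis), with plus-strand genes above and minus-strand genes below. Arrows point in the direction of transcription and are coloured by the median level over 18 libraries on a log10(FPKM + 1) scale. The 2 darkest copies, Oas1g and Oas1a, lie next to each other between Oas1h and Oas1d.

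Promoter sequence was available for 5 of the copies (Oas1a, Oas1c, Oas1f, Oas1g and Oas1h, from RefSeq on GRCm38.p6) and showed a split that the choice of genes had not used. The windows ran from 250 bases before to 50 bases after the RefSeq gene start. They were searched on both strands for the core of the interferon-stimulated response element (ISRE), GAAANNGAAA, for its tandem form GAAANNGAAANNGAAA, which holds 2 overlapping cores, and for the E-box CANNTG, the motif of basic helix-loop-helix factors such as the oocyte factor FIGLA. The 120 bases before the start are shown, 5′ to 3′ on the strand of the gene. Oas1a (chr5:120907526-120907645, minus strand) and Oas1c (chr5:120812515-120812634, minus strand) are given with the ISRE in capitals, and Oas1f (chr5:120847247-120847366, plus strand) and Oas1h (chr5:120861302-120861421, plus strand) with the E-boxes in capitals, to set an interferon-type copy beside 3 copies that were abundant in the embryos.
Oas1a: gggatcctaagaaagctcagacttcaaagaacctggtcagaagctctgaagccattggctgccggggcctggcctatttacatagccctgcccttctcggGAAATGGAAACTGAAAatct
Oas1c: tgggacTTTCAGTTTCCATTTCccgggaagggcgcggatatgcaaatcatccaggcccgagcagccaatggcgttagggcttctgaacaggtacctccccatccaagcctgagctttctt
Oas1f: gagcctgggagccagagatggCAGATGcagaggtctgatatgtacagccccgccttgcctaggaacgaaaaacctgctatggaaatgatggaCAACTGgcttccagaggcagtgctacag
Oas1h: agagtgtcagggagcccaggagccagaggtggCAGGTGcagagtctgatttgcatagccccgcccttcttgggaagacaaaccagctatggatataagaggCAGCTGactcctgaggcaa
Oas1a and Oas1g each held 1 tandem ISRE just before the start, at −20 to −5 in Oas1a and −18 to −3 in Oas1g, and no E-box. Oas1c held the same tandem element in reverse orientation at −114 to −99 and no E-box. Since Oas1c and Oas1b share the 120 bases between them, this element, at chr5:120812613-120812628, also lies at −22 to −7 from the start of Oas1b. Oas1f and Oas1h held no ISRE core and 2 E-boxes each. Among all 32851 RefSeq promoter windows, 3.44% held an ISRE core, 0.116% the tandem form and 72.3% an E-box. The windows of Oas1a and Oas1g were 88.8% identical over aligned bases and those of Oas1f and Oas1h 81.7%, whereas the other pairs ranged between 59.2% and 68.8%. A match describes letters only, and the absence of a match covers only this window.

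**Figure D2:**
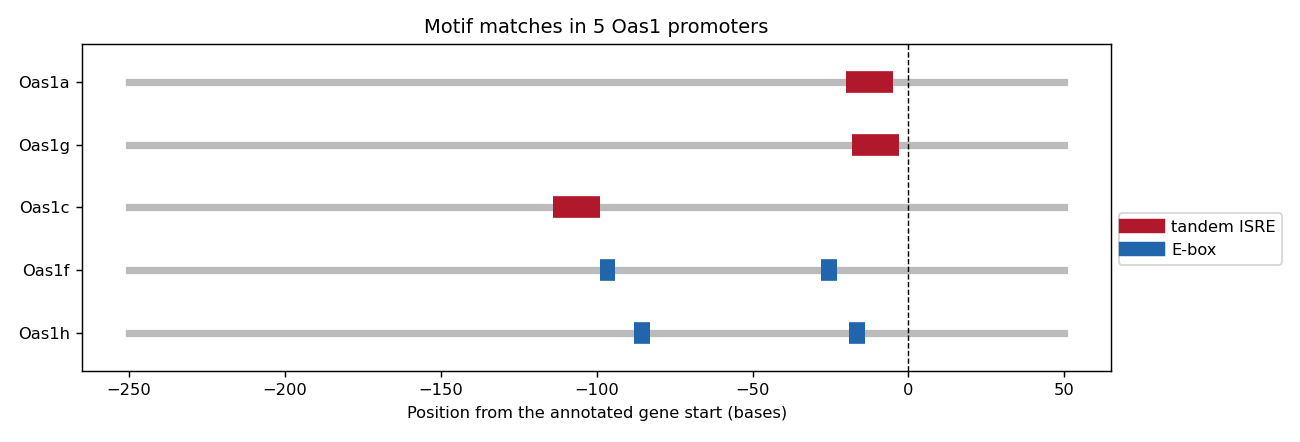
Positions of motif matches (coloured blocks) in 5 Oas1 promoter windows (grey lines), in bases from the annotated gene start (x axis, dashed line at the start). The tandem ISRE of Oas1a and Oas1g touches the start region, that of Oas1c lies at −114 to −99, and Oas1f and Oas1h hold E-boxes alone.

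The copies are similar enough that read assignment matters for some of them. Between the longest annotated transcripts, Oas1a and Oas1g were 97.5% identical, Oas1d and Oas1e 91.1%, and the least alike pair, Oas1e and Oas1g, 72.2%. Windows of 150 bases, the read length, were shared with another copy for 32.4% of Oas1a and 30.1% of Oas1g, and for 0% of the other 6 copies. At 50 bases the shared share was 11.3% in Oas1e, 10.7% in Oas1c, 6.2% in Oas1d, 2.9% in Oas1f, 1.3% in Oas1b and 0.4% in Oas1h. The levels of Oas1a and Oas1g are therefore uncertain relative to each other, since the sources used here do not state how multi-mapped reads were handled.

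The siRNA lowered its target in every library. Echs1, the mitochondrial enoyl-CoA hydratase that removes crotonyl-CoA, was at 0.71 to 5.88 FPKM in the 3 siEchs1 E2C libraries, against 27.47 to 32.52 FPKM in siCon E2C, and at 0.89 to 4.32 FPKM in siEchs1 L2C, against 24.43 to 39.17 FPKM in siCon L2C. The 7 genes of the early 2-cell programme each reached 1 FPKM in at least 1 library of every group, a bar too low to check the embryo label. Their summed level was 238.53 to 412.74 FPKM in siEchs1 E2C, against 1022.79 to 1247.34 FPKM in siCon E2C. At L2C it was 71.85 to 175.5 FPKM in siEchs1, against 1095.23 to 1596.62 FPKM in siCon. In the treatment experiment it was 243.13 to 254.88 FPKM after crotonate and 167.71 to 230.26 FPKM after acetate, against 101.15 to 204.62 FPKM in DMSO. A low sum at E2C was thus not particular to siEchs1. The library siEchs1 E2C replicate 3 stood apart, with a Spearman correlation over genes of 0.668 and 0.718 with the other libraries of its group, whereas those 2 correlated at 0.9 and replicates of the other groups at 0.848 to 0.937. The mitochondrial share of the summed FPKM was 1.696% to 10.358% in siEchs1 E2C, against 13.105% to 17.078% in siCon E2C, and 0.834% to 2.276% in siEchs1 L2C, against 7.619% to 11.203% in siCon L2C. With the values rescaled to leave out mitochondrial transcripts, the 3 copies called higher in siEchs1 E2C and the 6 called in siEchs1 L2C were still called, with log2 changes of 1.96 for Oas1c, 2.37 for Oas1d and 2.57 for Oas1e at E2C, and 5.1 for Oas1e and 4.71 for Oas1h at L2C. In bulk libraries of pooled embryos, fewer embryos with a transcript and less of it per embryo cannot be told apart.

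Over all 18 libraries the family fell into 3 ranges of abundance. FPKM scales by gene length, so levels can be set side by side between copies. Oas1d was listed at 99.94 to 1269.06 FPKM, Oas1e at 35 to 2010.93, Oas1h at 24.07 to 1379.14 and Oas1c at 49.83 to 804.3. The oocyte-type copies were thus expressed in every library, with medians of 483.2 for Oas1d, 219.15 for Oas1h, 205.185 for Oas1e and 138.77 for Oas1c. Oas1f lay lower, at 18.12 to 120.85 FPKM. Oas1b stayed between 2.99 and 8.17 FPKM in all 18 libraries, with a median of 5.04. The interferon-type pair was close to 0. Oas1a reached at most 0.91 FPKM and Oas1g at most 1.8 FPKM, with 4 libraries listed at 0 for Oas1g and 1 for Oas1a.

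**Figure D3:**
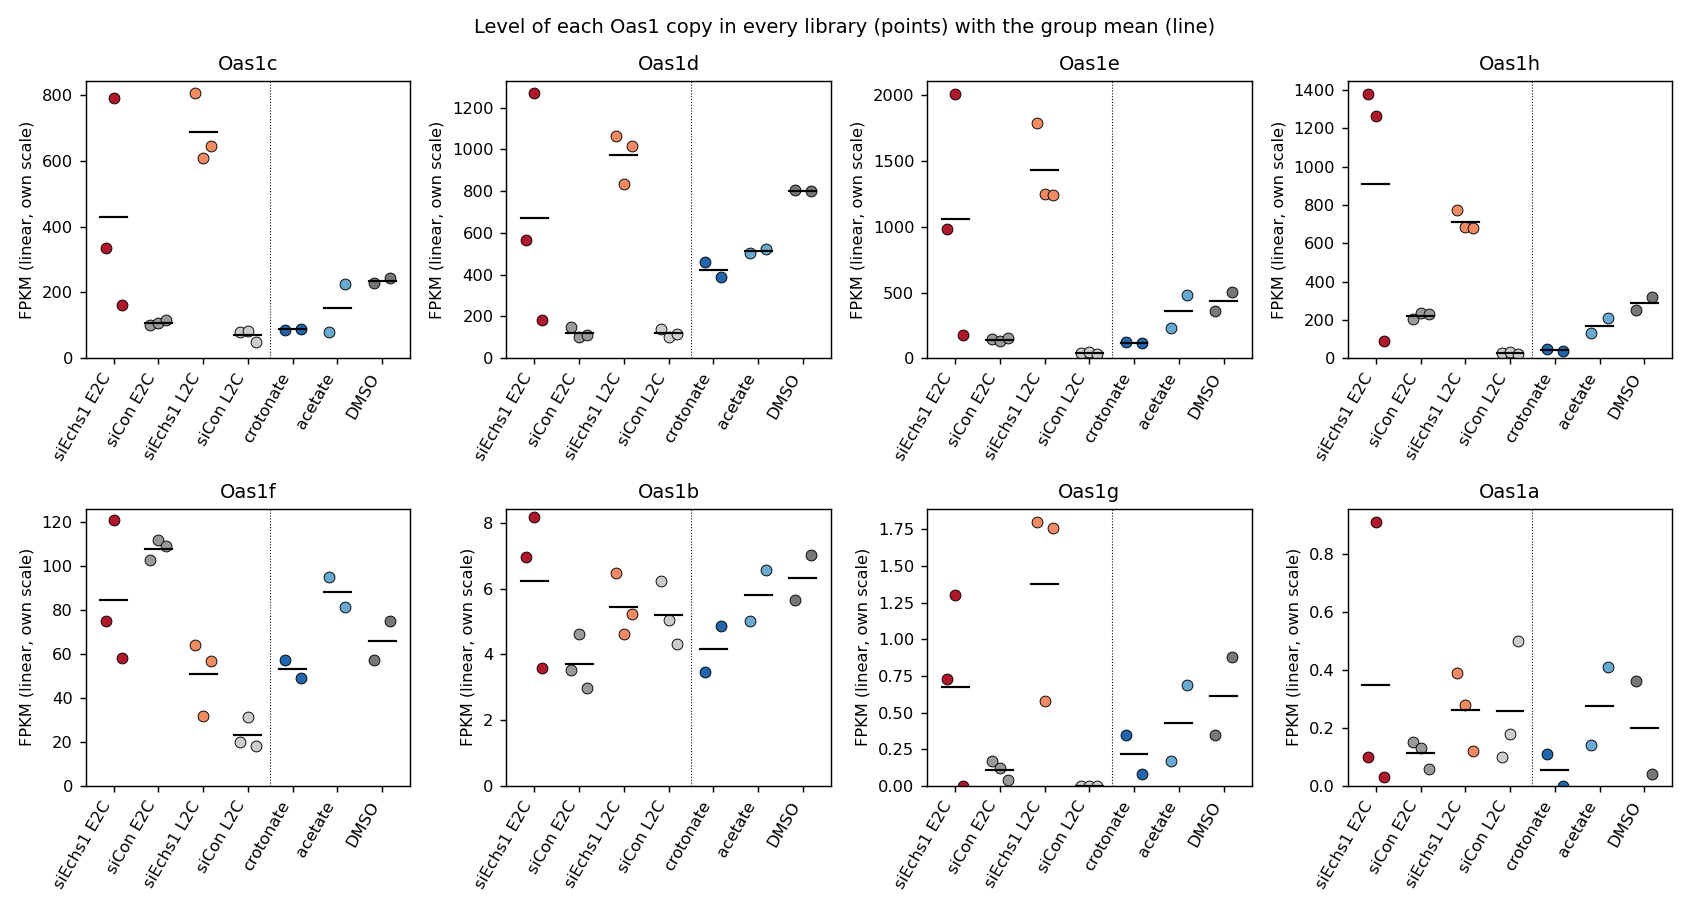
FPKM of each Oas1 copy (one panel per gene, linear y axis with its own scale) in 18 libraries of 7 groups. Points are libraries in the order of their replicate numbers, horizontal bars are group means, and the dotted line parts the siRNA from the treatment experiment. Oas1c, Oas1d, Oas1e and Oas1h are high in all siEchs1 L2C libraries, and siEchs1 E2C replicate 3 lies far below replicates 1 and 2 for these genes.

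Set as a whole, the 8 copies summed to 676.11 to 5469.9 FPKM in siEchs1 E2C, against 689.86 to 716.81 FPKM in siCon E2C. The sum was 3416.47 to 4506.4 FPKM in siEchs1 L2C, against 247.56 to 317.53 FPKM in siCon L2C. It was 682.57 to 781.98 FPKM after crotonate and 1046.41 to 1527.43 FPKM after acetate, against 1707.83 to 1951.54 FPKM in DMSO. At its highest, in siEchs1 E2C replicate 2, the family made up 0.688% of all FPKM of the library, and at its lowest, in siCon L2C replicate 3, 0.03%.

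The leading copy differed between groups. Oas1e led in all 3 siEchs1 L2C libraries, with 34.05% to 39.76% of the family sum, whereas Oas1d led in all 3 siCon L2C libraries, with 34.67% to 46.74%. In siCon E2C the leading copy was Oas1h in every library, with 28.9% to 34.27%. In siEchs1 E2C a different copy led in each library, Oas1h in replicate 1, Oas1e in replicate 2 and Oas1d in replicate 3. Oas1d led in all 6 treatment libraries, with 56.8% to 58.95% of the sum after crotonate and 34.2% to 48.3% after acetate, against 40.94% to 47.15% in DMSO. Oas1h held 5.55% to 6.24% after crotonate and 12.45% to 13.73% after acetate, against 14.65% to 16.47% in DMSO.

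**Figure D4:**
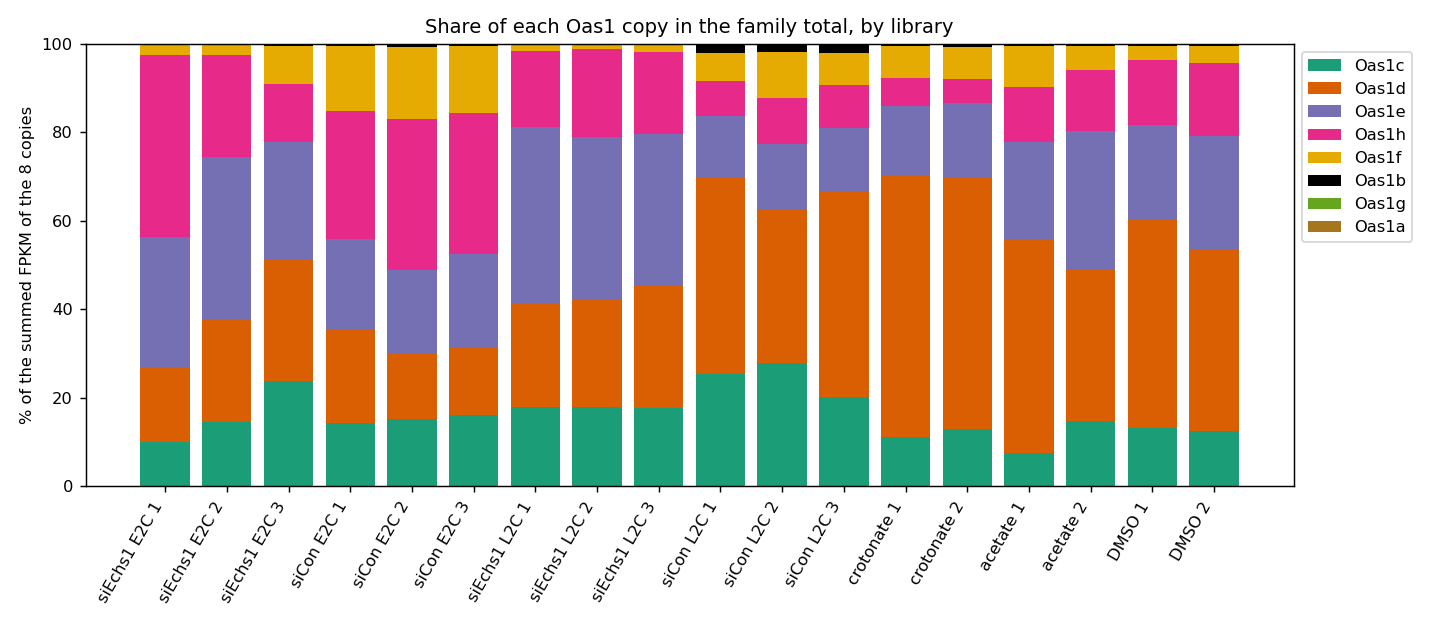
Share of each Oas1 copy in the summed FPKM of the 8 copies (y axis, percent), 1 stacked bar per library, labelled by group and replicate. Oas1h holds 28.9% to 34.27% in siCon E2C and 5.55% to 6.24% after crotonate, and Oas1e holds 34.05% to 39.76% in siEchs1 L2C.

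At L2C, Echs1 knockdown went with high levels of the oocyte-type copies. Values were tested as log2(FPKM + 1) with limma, 12 libraries in 1 fit, and calls were made where the p adjusted by Benjamini-Hochberg over all 17652 genes tested was below 0.05. Of the 7 copies tested 6 were called higher in siEchs1 L2C, where 21.9% of all genes tested were called higher. Oas1g is among the 6, but it had passed the low-value filter of at least 1 FPKM in 3 libraries through 3 siEchs1 libraries alone and so had to differ. Oas1a was under the filter and was not tested. The median change of all genes tested was −0.08 on the log2 scale.

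Oas1e was listed at 1791.66, 1252.64 and 1243.78 FPKM in siEchs1 L2C, against 43.16, 44.30 and 35.00 FPKM in siCon L2C. The groups did not overlap, and the ratio of the means was 35.016. The log2 change was 5.08 with a standard error of 0.638 (adjusted p = 0.000113). Oas1h was listed at 773.66, 682.78 and 681.43 FPKM in siEchs1 L2C, against 25.59, 30.38 and 24.07 FPKM in siCon L2C. These groups were also far apart, with a ratio of means of 26.71 and a log2 change of 4.69 with a standard error of 0.77 (adjusted p = 0.000455).

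Oas1c and Oas1d had smaller fitted changes on the same scale and higher levels in the controls. Oas1c was at 804.30, 609.66 and 645.33 FPKM in siEchs1 L2C, against 80.88, 82.81 and 49.83 FPKM in siCon L2C, a log2 change of 3.28 with a standard error of 0.465 (adjusted p = 0.000202). Oas1d was at 1063.95, 834.13 and 1017.86 FPKM in siEchs1 L2C, against 141.49, 102.93 and 115.71 FPKM in siCon L2C, a log2 change of 3.01 with a standard error of 0.527 (adjusted p = 0.000651). In neither gene did the groups overlap.

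Oas1f moved least of the called copies that were well expressed. It was at 64.16, 31.77 and 56.75 FPKM in siEchs1 L2C, against 20.07, 31.22 and 18.12 FPKM in siCon L2C, so that the lowest siEchs1 library lay just above the highest siCon library. The log2 change was 1.08 with a standard error of 0.366 (adjusted p = 0.0273). The call was lost without siEchs1 L2C replicate 1 or 3 (adjusted p = 0.102 and 0.0916), without siCon L2C replicate 1 or 3 (adjusted p = 0.0777 and 0.0852), and with no filter on low values (adjusted p = 0.0535).

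The interferon-type copies and Oas1b kept low levels. Oas1b was at 6.48, 4.63 and 5.24 FPKM in siEchs1 L2C, against 6.24, 5.06 and 4.33 FPKM in siCon L2C. These values overlapped throughout, with a log2 change of 0.06 and a standard error of 0.336 (adjusted p = 0.904). Oas1g was at 1.80, 0.58 and 1.76 FPKM in siEchs1 L2C and listed at 0 in the 3 siCon L2C libraries, with a log2 change of 1.2 and a standard error of 0.314 (adjusted p = 0.00738). Oas1a was at 0.39, 0.28 and 0.12 FPKM in siEchs1 L2C, against 0.10, 0.18 and 0.50 FPKM in siCon L2C, with no separation of the groups.

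Oas1c and Oas1b start 120 bases apart, and their levels were far from proportional. The ratio of the Oas1c to the Oas1b level within a library was 123.15 to 131.68 in siEchs1 L2C, against 11.51 to 16.37 in siCon L2C. At E2C it was 45.08 to 96.92 in siEchs1, against 22.94 to 38.7 in siCon. It was 18.38 to 25.19 after crotonate and 15.74 to 34.09 after acetate, against 34.57 to 40.14 in DMSO. The tandem ISRE between them lies at −114 to −99 from the start of Oas1c, as printed above, and closer to the start of Oas1b.

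At E2C siEchs1 replicate 3 lay below replicates 1 and 2 for Oas1c, Oas1d, Oas1e and Oas1h. Of the 7 copies tested Oas1c, Oas1d and Oas1e were called higher in siEchs1 E2C, where 11% of all genes tested were called higher and the median change of all genes was 0.15. Oas1d was at 564.87, 1269.06 and 184.70 FPKM in siEchs1 E2C, against 147.38, 99.94 and 109.25 FPKM in siCon E2C. Replicate 3 lay close above the controls and replicates 1 and 2 far above them, and the log2 change was 2.11 with a standard error of 0.527 (adjusted p = 0.0153).

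Oas1e was at 987.28, 2010.93 and 179.19 FPKM in siEchs1 E2C, against 145.16, 131.24 and 151.33 FPKM in siCon E2C, a log2 change of 2.31 with a standard error of 0.638 (adjusted p = 0.0241). Oas1c was at 335.08, 791.84 and 161.82 FPKM in siEchs1 E2C, against 100.01, 105.76 and 115.72 FPKM in siCon E2C, a log2 change of 1.7 with a standard error of 0.465 (adjusted p = 0.0228). In both genes every siEchs1 library lay above every siCon library, with replicate 3 the lowest.

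Oas1h showed the same split more sharply. It was at 1379.14, 1266.84 and 88.67 FPKM in siEchs1 E2C, against 202.86, 236.40 and 228.56 FPKM in siCon E2C. Replicates 1 and 2 lay above all controls and replicate 3 below all of them, and the log2 change of 1.27 with a standard error of 0.77 missed the threshold (adjusted p = 0.265). Oas1f overlapped between groups, at 74.96, 120.85 and 58.11 FPKM in siEchs1 E2C, against 102.68, 111.66 and 108.86 FPKM in siCon E2C. Its log2 change was −0.41 with a standard error of 0.366 (adjusted p = 0.463).

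Oas1b was at 6.97, 8.17 and 3.59 FPKM in siEchs1 E2C, against 3.52, 4.61 and 2.99 FPKM in siCon E2C, with overlapping groups and a log2 change of 0.58 with a standard error of 0.336 (adjusted p = 0.247). Oas1g was at 0.73, 1.30 and 0.00 FPKM in siEchs1 E2C, against 0.17, 0.12 and 0.04 FPKM in siCon E2C (adjusted p = 0.268). Oas1a was at 0.10, 0.91 and 0.03 FPKM in siEchs1 E2C, against 0.15, 0.13 and 0.06 FPKM in siCon E2C. The single highest value of each of these 3 genes in the group belonged to replicate 2, the library with the highest family sum.

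The E2C calls rested on which libraries entered. Without siEchs1 E2C replicate 3, the library that stood apart, 6 copies were called higher, with log2 changes of 2.26 for Oas1c, 2.84 for Oas1d, 3.3 for Oas1e and 2.57 for Oas1h. All genes called higher were then 23% of those tested, against 11% with the library, and the 6 include Oas1g, which passed the filter through siEchs1 libraries alone. Without siEchs1 E2C replicate 2, or without siCon E2C replicate 2 or 3, 0 were called, and without siCon E2C replicate 1 Oas1d alone was. Without siEchs1 E2C replicate 1 the Oas1e call was lost (adjusted p = 0.0637). With the 2 E2C groups fitted by themselves 0 were called, at adjusted p-values of 0.106 for Oas1c, 0.0953 for Oas1d and 0.122 for Oas1e.

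**Figure D5:**
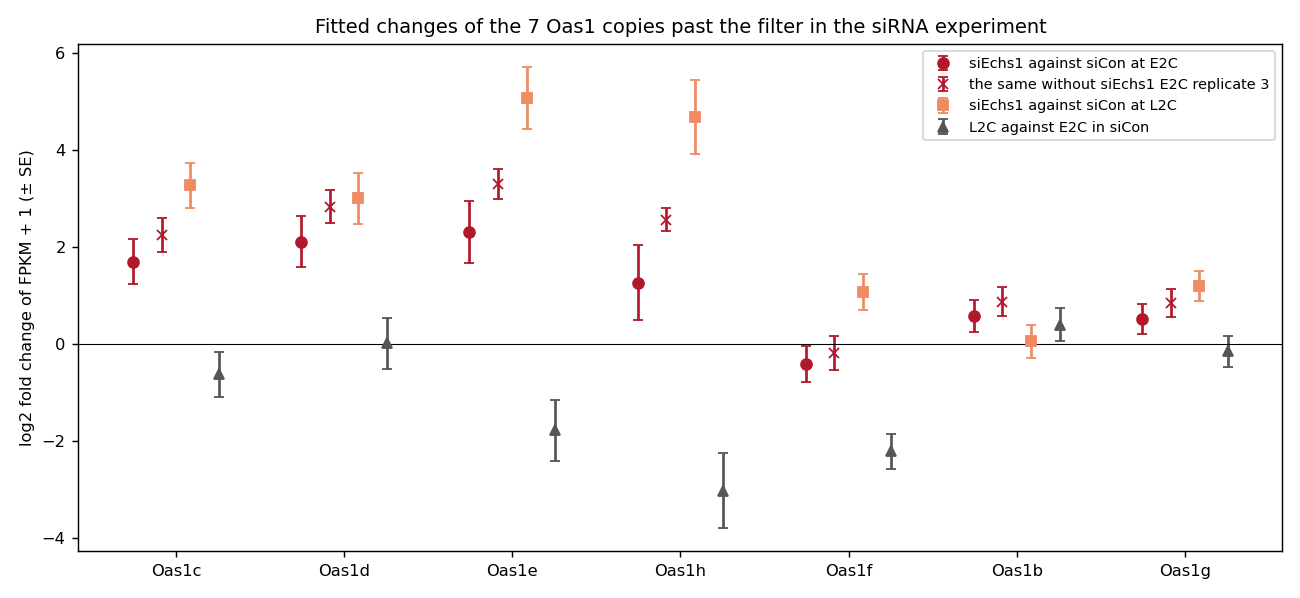
Fitted log2 fold change of FPKM + 1 (y axis) of the 7 tested Oas1 copies, with standard errors as bars, for siEchs1 against siCon at E2C (circles), the same without siEchs1 E2C replicate 3 (crosses), siEchs1 against siCon at L2C (squares) and L2C against E2C in siCon (triangles). Oas1e and Oas1h show the highest siEchs1 values at L2C, 5.08 and 4.69, and Oas1h the lowest value over stage in siCon, −3.02.

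The siEchs1 effect at L2C was compared with that at E2C by an interaction term. Of the 7 copies tested Oas1h was called, with an effect higher by 3.42 at L2C (standard error 1.09, adjusted p = 0.0482), where 5.65% of all genes tested were called higher. With siEchs1 E2C replicate 3 left out the difference was 2.12 (standard error 0.31, adjusted p = 0.00127), the E2C effect being 2.57 in place of 1.27. It was 4.1 without replicate 1 of that group and 4.04 without replicate 2. Oas1e (2.77, standard error 0.903, adjusted p = 0.0521) and Oas1f (1.49, standard error 0.518, adjusted p = 0.0654) missed the threshold narrowly. For Oas1c and Oas1d the difference was 1.57 (adjusted p = 0.115) and 0.9 (adjusted p = 0.423). The number of copies called went between 0 and 4 with the settings and libraries used. For Oas1h the adjusted p ranged between 0.00127 and 0.123 over the alternatives, and its call was lost when any siCon library or any siEchs1 L2C library was left out (adjusted p between 0.0763 and 0.0949).

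In control embryos, part of the family fell with stage. In siCon, 3 of the 7 copies tested were called lower at L2C than at E2C, where 14.4% of all genes tested were called lower and the median change was 0.51. Oas1h fell to 24.07 to 30.38 FPKM at L2C, against 202.86 to 236.4 FPKM at E2C, a log2 change of −3.02 with a standard error of 0.77 (adjusted p = 0.00605). Oas1f fell to 18.12 to 31.22 FPKM, against 102.68 to 111.66 FPKM, a log2 change of −2.21 with a standard error of 0.366 (adjusted p = 0.000357). Oas1e fell to 35 to 44.3 FPKM, against 131.24 to 151.33 FPKM, a log2 change of −1.78 with a standard error of 0.638 (adjusted p = 0.0338). The Oas1e call was lost when any siCon library was left out (adjusted p between 0.067 and 0.0912).

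For the other oocyte-type copies no change with stage was called in siCon. Oas1d was at 102.93 to 141.49 FPKM in siCon L2C, against 99.94 to 147.38 FPKM in siCon E2C, a log2 change of 0.02 (adjusted p = 0.977). Oas1c was at 49.83 to 82.81 FPKM in siCon L2C, against 100.01 to 115.72 FPKM in siCon E2C, and its log2 change of −0.62 missed the threshold (adjusted p = 0.29). The ratio of the L2C to the E2C mean in siCon was 1.01 for Oas1d and 0.12 for Oas1h.

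In siEchs1 embryos limma called 0 of the 7 copies between L2C and E2C, where 14.6% of all genes tested were called. An unadjusted p under 0.05 was reached by 0 of the copies and by 28% of all genes tested. The log2 changes were 0.96 for Oas1c, 0.92 for Oas1d, 0.99 for Oas1e, 0.4 for Oas1h, −0.72 for Oas1f and −0.12 for Oas1b, and the lowest adjusted p was 0.203. Without siEchs1 E2C replicate 3 Oas1h was called lower at L2C, by −0.89 (adjusted p = 0.016). Without siEchs1 E2C replicate 2 Oas1c (1.54, adjusted p = 0.0192) and Oas1d (1.58, adjusted p = 0.0311) were called higher at L2C.

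In the treatment experiment Oas1h, the copy that led to the choice of this family, was at 48.81 and 37.85 FPKM after crotonate and 130.25 and 209.74 FPKM after acetate, against 250.17 and 321.51 FPKM in DMSO. The groups were fully separated in that order, and the crotonate mean was 0.152 of the DMSO mean and 0.255 of the acetate mean. Oas1e was at 124.05 and 113.90 FPKM after crotonate and 231.18 and 481.83 FPKM after acetate, against 361.72 and 506.04 FPKM in DMSO. Here the crotonate libraries lay below all others, while acetate and DMSO overlapped.

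Oas1c was at 87.16 and 89.35 FPKM after crotonate and 79.02 and 224.31 FPKM after acetate, against 227.22 and 242.34 FPKM in DMSO. The acetate libraries lay on either side of the crotonate libraries. Oas1d was at 460.94 and 387.69 FPKM after crotonate and 505.46 and 522.32 FPKM after acetate, against 805.30 and 798.98 FPKM in DMSO. For Oas1d the 3 groups were separated in the same order as for Oas1h, over a narrower span.

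Oas1f was at 57.10 and 48.84 FPKM after crotonate and 95.17 and 81.55 FPKM after acetate, against 57.05 and 74.74 FPKM in DMSO, so that crotonate and DMSO overlapped. Oas1b was at 3.46 and 4.86 FPKM after crotonate and 5.02 and 6.58 FPKM after acetate, against 5.66 and 7.01 FPKM in DMSO. Oas1a and Oas1g stayed under 1 FPKM in all 6 libraries and below the filter of at least 1 FPKM in 2 libraries.

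On the log2(FPKM + 1) scale, crotonate against DMSO came to −2.69 for Oas1h, −1.84 for Oas1e, −1.4 for Oas1c, −0.92 for Oas1d, −0.51 for Oas1b and −0.3 for Oas1f. Thus 3 of the 6 copies past the filter were at least 2-fold lower, as were 8.98% of the 13789 genes past it. Because the family was chosen with this contrast in view, nothing is read from that count. Crotonate against acetate came to −1.92 for Oas1h, −1.48 for Oas1e, −0.73 for Oas1f, −0.59 for Oas1c, −0.4 for Oas1b and −0.28 for Oas1d. Here 2 copies, Oas1h and Oas1e, were at least 2-fold lower, as were 9.09% of all genes past the filter, and without acetate replicate 2 only Oas1h was. The crotonate libraries enter both contrasts. The mitochondrial share was 16.714% to 19.832% after crotonate and 11.939% to 20.67% after acetate, against 12.193% to 13.414% in DMSO. Rescaled without mitochondrial transcripts, the log2 change of crotonate against DMSO was −2.67 for Oas1h, −1.81 for Oas1e and −1.37 for Oas1c.

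Acetate against DMSO, a contrast whose DMSO libraries are also those of the crotonate contrast, gave no call by limma for any of the 6 copies, where 0.0653% of all genes tested were called. An unadjusted p under 0.05 was reached by 2 of them and by 5.96% of all genes tested. Oas1h had a log2 change of −0.78 with a standard error of 0.33 and Oas1d one of −0.64 with a standard error of 0.254, and both had an adjusted p of 0.784. Oas1c was at −0.81 with a standard error of 0.455. Without acetate replicate 2 Oas1c was called, at −1.56 (adjusted p = 0.0348), where acetate was 1 library, assumed to vary like the other groups, and 5.29% of all genes tested were called lower.

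The 2 control groups at E2C differed in the make-up of the family. They belong to separate experiments and were not tested against each other. Oas1d averaged 802.14 ± 4.469 FPKM in DMSO (SD, n = 2) and 118.857 ± 25.137 FPKM in siCon E2C (SD, n = 3). Oas1h averaged 285.84 ± 50.445 FPKM in DMSO and 222.607 ± 17.545 FPKM in siCon E2C.

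Ordered by group mean, siEchs1 L2C stood highest and siCon L2C lowest for Oas1c and Oas1e, with all other groups between. In both genes siEchs1 E2C came next after siEchs1 L2C and overlapped it and DMSO, the group below. For Oas1h siEchs1 E2C (911.55 ± 714.844 FPKM) and siEchs1 L2C (712.623 ± 52.864 FPKM, SD, n = 3 each) overlapped at the top. Below them DMSO was separate from siCon E2C, siCon E2C overlapped acetate, and crotonate (43.33 ± 7.75 FPKM, n = 2) and siCon L2C (26.68 ± 3.293 FPKM, n = 3) followed without overlap. For Oas1f the order was another one, with siCon E2C (107.733 ± 4.595 FPKM) highest, and siEchs1 L2C (50.893 ± 16.971 FPKM) next to last above siCon L2C (23.137 ± 7.068 FPKM, SD, n = 3 each).

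The oocyte-type copies varied together over the 12 siRNA libraries, on the log2(FPKM + 1) scale. Pearson's r was 0.978 for Oas1c with Oas1e, 0.969 for Oas1c with Oas1d, 0.946 for Oas1e with Oas1h and 0.943 for Oas1d with Oas1e, and 0.808 for Oas1d with Oas1h. Oas1f correlated at 0.651 with Oas1h and at 0.189 with Oas1d, and Oas1b at −0.048 to 0.633 with the other 5. The libraries share their groups, so these values describe group differences as much as variation within a group.

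The genes whose levels over the same 12 libraries were most like those of each copy were ranked among 8503 genes with a mean of at least 5 FPKM. For Oas1d they were Gdf9, a growth factor secreted by oocytes (r = 0.99), Fahd2a (0.987) and Fbxo25 (0.987). Those for Oas1c were Nobox, an oocyte homeobox transcription factor (0.986), Tcea3 (0.983) and Gnb4 (0.982). Oas1e was followed by Pramef20, Rnaset2a (both 0.99) and Cpsf4l (0.989), and Oas1h by Gtsf1, a piRNA pathway protein (0.993), Tmem50a (0.993) and Fbxw20 (0.992). Oas1f had Glo1, the methylglyoxal-clearing glyoxalase (0.97), Gpx6 (0.955) and Aven (0.945), and Oas1b had lower values, with Lin7b (0.894), Ube2h (0.892) and Jtb (0.863).

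Of 23 oocyte transcripts tested 17 were called higher and 2 lower in siEchs1 L2C, with a median log2 change of 4.2, where 21.9% of all genes tested were called higher and 26.9% lower. In siEchs1 E2C 14 were called higher and 4 lower, with a median of 2.66, where 11% of all genes were called higher and 9.31% lower. The 4 were Omt2b (−2.21), Dppa3 (−1.24), Oosp1 (−1.23) and Tcl1 (−0.88). Summed over all 23, the level was 31727.02 to 45440.7 FPKM in siEchs1 E2C, against 69433.42 to 73325.72 FPKM in siCon E2C. A large part of the siCon E2C sum came from genes called lower. Omt2b, Dppa3 and Oosp1 averaged 35354.247, 13633.92 and 7011.343 FPKM there, so the sum does not describe the 14 genes called higher. At L2C the sum was 32875.77 to 40535.59 FPKM in siEchs1, against 17981.37 to 19768.77 FPKM in siCon. In siEchs1 E2C 1 library was close to the controls for Zp3, which was at 35.9 FPKM in the lowest siEchs1 E2C library and 2242.757 FPKM in their mean, against 27.99 to 36.69 FPKM in siCon E2C. Leaving out siEchs1 E2C replicate 3, a setting chosen after the data were seen, gave 16 called higher and 5 lower, with a median of 3.58. At L2C they included Zar1 (5.98, adjusted p = 4.9e-05), needed for the oocyte-to-embryo transition, the zona pellucida gene Zp3 (5.62, adjusted p = 0.00312), Mos (6.66, adjusted p = 0.000942), the kinase of meiotic arrest, and Figla (5.59, adjusted p = 0.000786). Omt2b (−2.18, adjusted p = 0.000229) and Tcl1 (−1.14, adjusted p = 0.00257) were the genes called lower. After crotonate the median of the 22 oocyte transcripts tested was −0.84 against DMSO, with 0 called by limma, where 0.529% of all genes tested were called, and 11 at an unadjusted p under 0.05, which 16.3% of all genes tested reached. After acetate it was −0.18, with 0 called and 0 at an unadjusted p under 0.05, which 5.96% of all genes tested reached.

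The neighbouring OAS genes were nearly silent. Oas3, next to the cluster, reached at most 1.62 FPKM in any library and Oas2 at most 0.35. Of the 4 other genes of the OAS pathway that passed the filter, 1 was called higher and 2 lower in siEchs1 L2C. Of all genes tested 21.9% were called higher and 26.9% lower there. Oasl1, an OAS-like protein that restrains interferon production, was at 7.83 ± 1.557 FPKM in siEchs1 L2C, against 3.347 ± 0.682 FPKM in siCon L2C (SD, n = 3 each, log2 change 1.02, adjusted p = 0.0176). Oasl2 (−1.71, adjusted p = 0.008) and Abce1, an ATP-binding protein of ribosome recycling (−1.22, adjusted p = 0.018), were lower. At E2C 0 of the 4 were called by limma, with 1 at an unadjusted p under 0.05, which 34.6% of all genes tested reached. The highest in level were Abce1 (log2 change −0.11, adjusted p = 0.871) and Oasl1 (0.5, adjusted p = 0.283).

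The interferon-stimulated genes called at L2C were lower in siEchs1, where the oocyte-type Oas1 copies were higher. Of 15 on the list 6 passed the filter, and 3 were called lower and 0 higher in siEchs1 L2C, with a median log2 change of −1.61. Of all genes tested 26.9% were called lower there. Isg15, the ubiquitin-like modifier, averaged 0.63 ± 0.19 FPKM in siEchs1 L2C, against 18.603 ± 10.613 FPKM in siCon L2C (log2 change −3.39, adjusted p = 0.000546). Isg15 would not have passed the filter without the siCon L2C libraries, where it was high, so its call was largely fixed by the filter. Ifi35 was at 1.613 ± 1.239 FPKM in siEchs1 L2C, against 50.897 ± 19.676 FPKM in siCon L2C (−4.38, adjusted p = 5.55e-05), and Cxcl10 was the other gene called (−2.57, adjusted p = 0.00727). At E2C Ifi35 alone was called, lower in siEchs1 (−3.08, adjusted p = 0.000989), where 9.31% of all genes tested were called lower. Ifi35 averaged 0.73 FPKM in siEchs1 E2C, against 12.96 FPKM in siCon E2C. In the treatment experiment it averaged 0.535 FPKM after crotonate, 0.97 FPKM after acetate and 0.21 FPKM in DMSO, so siCon alone was high at E2C.

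In siEchs1 L2C 26.9% of all genes tested were called lower and 21.9% higher. Of 8 genes of type I interferon signalling tested, 4 were called lower and 0 higher there. They were Irf9 (−3.03, adjusted p = 0.000168), Stat2 (−2.72, adjusted p = 0.000111), Irf7 (−1.72, adjusted p = 0.0059) and the kinase gene Tyk2 (−1.41, adjusted p = 0.0229). Irf7 would not have passed the low-value filter without the siCon L2C libraries, so its calls here and over stage were largely fixed by the filter. IRF9 and STAT2 are known as parts of the complex that binds the ISRE. Stat2 was at 3.683 ± 0.513 FPKM in siEchs1 L2C, against 31.68 ± 14.524 FPKM in siCon L2C (SD, n = 3 each), and at 2.127 ± 0.251 FPKM in siEchs1 E2C, against 1.953 ± 0.457 FPKM in siCon E2C. In siCon, 5 of the 8 were called higher at L2C than at E2C, as were 35.8% of all genes tested, among them Stat2 (3.39, adjusted p = 1.35e-05) and Irf9 (2.44, adjusted p = 0.000411). Among the copies with a tandem ISRE within 120 bases of the start, Oas1b and Oas1c had log2 changes of 0.4 (adjusted p = 0.341) and −0.62 (adjusted p = 0.29) over the same stages. Oas1a stayed under 1 FPKM, and Oas1g was listed at 0 in siCon L2C. A link of these levels to the ISRE or to the factors that bind it was not tested.

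Among sensors of double-stranded RNA, 5 were tested. Of all genes tested 26.9% were called lower in siEchs1 L2C, and 11% higher and 9.31% lower in siEchs1 E2C. In siEchs1 L2C Dhx58 was called lower (−2.6, adjusted p = 0.000129). Dhx58 would not have passed the filter without the siCon L2C libraries, where it was high, so this call was largely fixed by the filter. In siEchs1 E2C Mavs, the mitochondrial adaptor of the sensors, was called higher (1.36, adjusted p = 0.017) and Tlr3 lower (−1.05, adjusted p = 0.0246). In the treatment experiment 0 genes of the OAS, sensor, signalling and interferon-stimulated lists were called by limma against DMSO. At an unadjusted p under 0.05 there were 3 such genes over the 4 lists for crotonate and 2 for acetate. Of all genes tested 16.3% reached it for crotonate and 5.96% for acetate.

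The genes around the cluster had no common direction. Of the 4 flanking genes tested 1 was called higher (Rasal1, 2.2) and 2 lower (Ddx54, −2.5, and Rita1, −1.43) in siEchs1 L2C, with a median log2 change of −1.32. Of all genes tested 21.9% were called higher and 26.9% lower there. Rph3a, the neighbour beyond Oas1d, was at 12.97 ± 3.066 FPKM in siEchs1 L2C, against 32.633 ± 13.691 FPKM in siCon L2C (log2 change −1.21, adjusted p = 0.128). At E2C 0 of the 4 were called by limma and 0 had an unadjusted p under 0.05, which 34.6% of all genes tested reached. Rph3a was at 30.363 ± 34.565 FPKM in siEchs1 E2C, against 13.7 ± 1.385 FPKM in siCon E2C (log2 change 0.49, adjusted p = 0.623).

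Marker genes of maternal cell types were summed in each library. The 9 cumulus and granulosa markers summed to 3.14 to 9.68 FPKM in siEchs1 E2C, against 4.2 to 8.74 FPKM in siCon E2C, and to 6.15 to 9.81 FPKM in siEchs1 L2C, against 1.67 to 6.74 FPKM in siCon L2C. The 8 macrophage and leukocyte markers, cells in which interferon-type Oas1 copies are known, summed to 15.92 to 37.23 FPKM in siEchs1 E2C, against 27.11 to 28.7 FPKM in siCon E2C, and to 18.45 to 25.05 FPKM in siEchs1 L2C, against 3.81 to 17.4 FPKM in siCon L2C. Of these markers Adgre1 was at 0 in every siEchs1 E2C, siEchs1 L2C and siCon L2C library. C1qb, a complement gene of macrophages, carried most of the sum in siEchs1 libraries and was called higher in siEchs1 L2C, at 18.623 ± 4.243 FPKM against 2.41 ± 1.005 FPKM in siCon L2C (SD, n = 3 each; log2 change 2.55, limma adjusted p = 0.000272). At E2C it was at 20.45 ± 10.904 FPKM in siEchs1, against 17.66 ± 1.133 FPKM in siCon (SD, n = 3 each). Of the 3 macrophage and leukocyte markers tested, Lyz2 and Cd68 had changes in the other direction. Lyz2 was at −1.01 (limma adjusted p = 0.0574) and Cd68 at −0.89 (limma adjusted p = 0.144) in siEchs1 L2C. In siEchs1 E2C Lyz2 was called lower (−1.61, limma adjusted p = 0.017), and Cd68 was at −0.52 (limma adjusted p = 0.482). The 5 blood markers summed to 2.65 to 10.47 FPKM in siEchs1 E2C, against 59.53 to 77.6 FPKM in siCon E2C, and to 3.43 to 18.45 FPKM in siEchs1 L2C, against 90.53 to 124.84 FPKM in siCon L2C. In the treatment experiment they summed to 9.36 to 13.78 FPKM after crotonate and 2.66 to 4.72 FPKM after acetate, against 3.79 to 4.68 FPKM in DMSO. Hba-a1 and Hba-a2 carried the siCon sums, with means of 30.373 and 34.9 FPKM at E2C and 92.917 and 19.077 FPKM at L2C. Hbb-bs, Hbb-bt and Alas2 averaged at most 0.503 FPKM in siCon. Hbb-bs averaged 1.497 FPKM in siEchs1 E2C, against 0.503 FPKM in siCon E2C. The part of all these markers in the results was not tested.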

How the data were processed

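The data are 18 Smart-seq2 libraries, 12 of the siRNA and 6 of the treatment experiment, with paired reads of 150 nt (per the labels). The submitters' processing notes name cutadapt 1.16, STAR and mm10, and no quantifier is named in the sources used here. Values as deposited by the authors are FPKM, fragment numbers scaled by gene length and by library size, for 55335 entries per library. Entries with a repeated symbol or a symbol turned into a date (237) were left out. Low values did not fall on whole-fragment steps (38.4% to 55.2% within 0.15 of a whole number, against 30% by chance), so depth is unknown. Summed FPKM was 705511 to 1122231 per library.

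Groups came from sample titles. For siEchs1 L2C replicates 2 and 3 the file headers carry the opposite numbers. Values were tested, two-sided, as log2(FPKM + 1) with limma-trend and robust variance (limma 3.58.1, R 4.3.3), with the siRNA and the treatment libraries each in 1 fit of group means. Genes needed at least 1 FPKM in 3 siRNA libraries (17652 genes) or 2 treatment libraries (13789 genes). Adjusted p-values are Benjamini-Hochberg over all of these, and the fold changes understate low genes. The code was tested on simulated data. Alignments used biopython 1.88, and coordinates came from GENCODE M21, whose IDs matched all 8 members. Members, gene lists and the rule for named genes (all members, the called genes of each list or, where none was called, the 2 highest in level, and the 3 genes most like each member) were chosen with earlier results of these data known. Of the listed genes, those with the clearest roles are printed. Alternatives were another scaling, filter, pseudocount, trend and replicate block, and leaving out each library. An item withheld from the text is not reported here.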

Additional observations from a re-analysis of the deposited data

Results flagged for a closer look

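The siEchs1 effect on Oas1h was higher at L2C than at E2C by 3.42 on the log2 scale (standard error 1.09, limma adjusted p = 0.0482), by a test of the difference itself. Oas1h was at 681.43 to 773.66 FPKM in siEchs1 L2C, against 24.07 to 30.38 FPKM in siCon L2C, and at 88.67 to 1379.14 FPKM in siEchs1 E2C, against 202.86 to 236.4 FPKM in siCon E2C. Of the libraries, 3 of 3 at L2C and 2 of 3 at E2C were above their controls, and the exception was siEchs1 E2C replicate 3. Without that library the difference was 2.12 (standard error 0.31, limma adjusted p = 0.00127). Leaving out siEchs1 E2C replicate 1 gave 4.1, and replicate 2 gave 4.04. The call was lost when any siEchs1 L2C or siCon library was left out (adjusted p between 0.0763 and 0.0949), with no filter on low values (adjusted p = 0.123), with a pseudocount of 0.1 (adjusted p = 0.0653) and without the trend (adjusted p = 0.051).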

How the results depend on the processing

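Each result was recomputed under another scaling, filter, pseudocount, trend, gene set or replicate block, and without each library. Of 980 alternatives for single copies, 917 were counted as the same, 42 lost a call and 17 gained one. Another 3, in the crotonate contrasts, moved by more than the spread, and 1 reversed with a call. Same means the same side of the threshold or, for the untested crotonate contrasts, a value within the spread. Values without a call could still change sign, as for Oas1b over stage in siCon (0.4, lowest −0.31). The reversed value was Oas1h between L2C and E2C in siEchs1, −0.89 without siEchs1 E2C replicate 3, against 0.4 with it, in a range of −0.89 to 1.08 over left-out libraries. For siEchs1 against siCon at E2C the number of copies called was 1 with no filter on low values, 0 with only the compared groups fitted, and 0 to 6 over left-out libraries. For the difference of siRNA effects it was 4 with quantile normalization, 2 with values rescaled without mitochondrial transcripts, 2 with protein-coding genes alone, 0 with no filter, 0 with a pseudocount of 0.1 and 0 without the trend, and 0 to 4 over left-out libraries. Over left-out libraries it was 0 to 2 between L2C and E2C in siEchs1 and 0 to 1 for acetate against DMSO, and the number at least 2-fold lower was 1 to 3 for crotonate against acetate. The causes were not tested. Protein-coding genes alone and the block by header numbers were chosen after seeing the data.

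Genes called over all features varied more in the treatment experiment, between 8 and 1152 for crotonate against DMSO (main value 73), 0 and 904 for acetate (9), and 9 and 1425 for crotonate against acetate (257), than for siEchs1 at L2C, between 6839 and 10308 (8611). At E2C they ranged between 1397 and 6496 (3578), for the difference between 1291 and 4061 (3039), and over stage in siEchs1 between 578 and 3453 (2572). The genes most like each copy changed with the measure, as 0 of the 3 stayed among the first 3 by Spearman rank for Oas1b, Oas1e and Oas1h, and 1 for Oas1c, Oas1d and Oas1f.

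By title numbers, r was between −0.101 and 0.111 over 18 same-numbered siRNA pairs and between −0.155 and 0.224 over 36 other pairs. The highest, 0.224, was siCon L2C replicate 3 with siEchs1 L2C replicate 2, which the headers number 3. With 2 libraries per treatment group, same-numbered pairs (−0.096 to 0.16) and other pairs (−0.16 to 0.096) mirror each other by construction and cannot decide. Whether the numbers pair libraries is therefore not settled. With the replicate block 3 copies were called at E2C, 6 at L2C and 1 for the difference, and in siEchs1 over stage 0, the counts without the block. The planned comparison of count tools was not run, because the files hold FPKM. With 2 or 3 libraries per group and no read counts, small changes of Oas1a and Oas1g were not detectable.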
